A study of Mus musculus with 6 samples.

Results

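The small heat shock proteins of muscle and the chaperones that fold myosin were described here in C2C12 cells, an established mouse myoblast line that forms myotubes when serum is lowered. The 7 genes were taken by symbol from the table of normalized transcript levels: Cryab, Hspb2, Hspb3, Hspb7, Hspb8, Unc45b and Smyd1. They were 7 of 20950 entries, and all 7 were among the 10731 entries with a mean of at least 1 FPKM (fragments per kilobase of transcript scaled to the mapped fragments of the library, a level per length) over the 6 libraries.

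The series asked how exosomes, the small vesicles that cells shed and that serum carries, act on myogenic differentiation. Poly(A) RNA of wild-type C2C12 cells was sequenced in 5 conditions that carried no genetic change. Growing cells were kept in 10% FBS (fetal bovine serum). Differentiating cells were moved to 0.2% FBS or to 2% HS (horse serum), each without exosomes or with exosomes prepared from FBS in the amount that 10% FBS holds. The condition 0.2% FBS + exosome had 2 libraries and each other condition had 1. Nothing in the labels said whether the 2 libraries came from separate cultures, so the p-values below measure only the spread between these samples. C2C12 cells are 1 line in culture with no nerve or vessel, and in each dish myotubes and unfused cells were extracted together, so that fewer myotubes and less RNA per myotube cannot be told apart.

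Small heat shock proteins share an alpha-crystallin domain and hold unfolding proteins in solution without using ATP, until an ATP-driven chaperone refolds them or a degradation pathway removes them. Several are most abundant in heart and skeletal muscle, where they bind desmin, actin, titin and filamin under mechanical load. Myosin heavy chain does not fold its motor domain unaided: UNC45B folds it together with HSP90, and the methyltransferase SMYD1 is needed to build it into thick filaments. Inherited defects of CRYAB and HSPB8 cause myopathies in which such proteins aggregate.

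Summed FPKM was 461439 to 515215 per library, a sum already scaled to the mapped fragments that does not measure depth. The libraries were close in estimated depth: the steps between low values gave an estimated 33300000 to 39400000 reads. At that depth Hspb3, the lowest member, rested on an estimated 17 to 106 reads per library, and Hspb7 on 631 to 2042. The muscle identity of the cells was plain in their markers: 7 skeletal muscle genes, with Myod1, Myog, Des and Ckm among them, summed to 1890 to 3829 FPKM in each library. Markers of other cell types were near 0. The 4 endothelial genes summed to 0.110 to 0.284 FPKM with Kdr listed at 0 in all libraries, the 4 bone genes to 0.0689 to 0.351, the 4 fat cell genes to 1.04 to 1.62, nearly all of it Lep with Cidec at 0, and the 4 listed blood genes to 1.22 to 2.10, nearly all of it Cd68 with Hbb-bs at 0.

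The members lie on 7 different stretches of the mouse genome (mm10, GENCODE vM21), apart from 1 pair. Hspb3, a single-exon gene for a protein of 154 residues, is at chr13:113662896-113663676 on the minus strand. Hspb7 (169 residues, 3 exons) is at chr4:141420779-141425311 on the plus strand, and Hspb8 (196 residues) at chr5:116408491-116422864 on the minus strand. Unc45b, with 20 exons and 931 residues, spans chr11:82910550-82943403 on the plus strand, and Smyd1, with 10 exons and 490 residues, spans chr6:71213940-71322233 on the minus strand. Cryab (175 residues, chr9:50751325-50756636, plus strand) and Hspb2 (182 residues, chr9:50751078-50752354, minus strand) stand head to head. The start of the first-numbered Cryab transcript is 552 bases from the start of Hspb2. An upstream first exon of another annotated Cryab transcript shares 252 bases with exons of Hspb2, which is 17.0% of the exon bases of Cryab and 30.2% of those of Hspb2. The strand setting of the FPKM calculation is not given in the sources used here, so in these 252 bases reads of the 2 genes may not have been told apart.

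**Figure D1:**
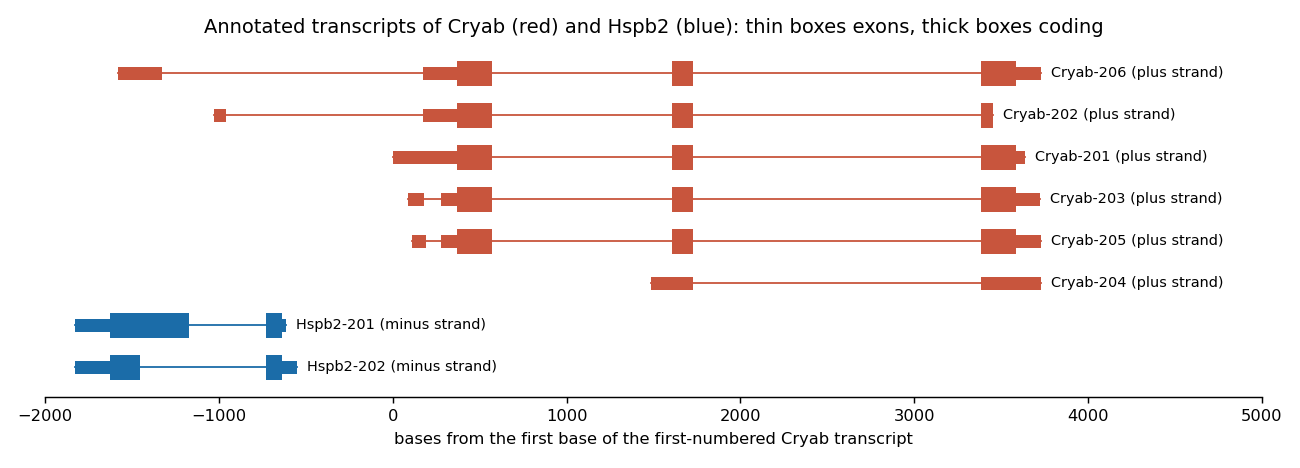
Exons of the annotated transcripts of Cryab (plus strand) and Hspb2 (minus strand), drawn against the distance in bases from the start of the first-numbered Cryab transcript, with thin boxes for exons and thick boxes for coding sequence. The 2 genes run away from each other with 552 bases between that start and the start of Hspb2, and their annotated exons overlap by 252 bases at an upstream first exon of Cryab.

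The 250 bases before the start site are shown for the 5 members that the promoter table held, because all 5 were lower in both exosome libraries of 0.2% FBS than in the other differentiating libraries, and for Hspb1, an abundant small heat shock gene that was not called (RefSeq, GRCm38.p6, which has the coordinates of mm10; each 5′ to 3′ on the strand of the gene). Capitals mark matches to 6 motifs searched on both strands: the E-box CANNTG bound by MYOD1 and MYOG, the MEF2 site, the CArG box bound by SRF, the M-CAT element CATTCC, the TATA box TATAAA, and a heat shock element written as GAANNTTC or TTCNNGAA. The windows lie at chr13:113663677-113663926 (Hspb3, minus), chr4:141420529-141420778 (Hspb7, plus), chr5:116422865-116423114 (Hspb8, minus), chr11:82911003-82911252 (Unc45b, plus), chr6:71262282-71262531 (Smyd1, minus) and chr5:135887669-135887918 (Hspb1, plus). For Unc45b and Smyd1 the RefSeq start used here lies inside the longer GENCODE span.
Hspb3: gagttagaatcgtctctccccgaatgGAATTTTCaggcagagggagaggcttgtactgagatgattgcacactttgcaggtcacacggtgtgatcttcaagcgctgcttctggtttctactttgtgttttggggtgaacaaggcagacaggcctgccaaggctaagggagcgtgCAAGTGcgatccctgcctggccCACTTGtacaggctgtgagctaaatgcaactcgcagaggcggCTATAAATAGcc
Hspb7: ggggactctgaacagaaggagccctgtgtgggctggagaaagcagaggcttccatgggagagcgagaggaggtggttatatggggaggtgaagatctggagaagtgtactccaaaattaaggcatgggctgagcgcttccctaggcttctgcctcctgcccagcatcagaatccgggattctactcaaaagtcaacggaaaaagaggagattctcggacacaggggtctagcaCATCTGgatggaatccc
Hspb8: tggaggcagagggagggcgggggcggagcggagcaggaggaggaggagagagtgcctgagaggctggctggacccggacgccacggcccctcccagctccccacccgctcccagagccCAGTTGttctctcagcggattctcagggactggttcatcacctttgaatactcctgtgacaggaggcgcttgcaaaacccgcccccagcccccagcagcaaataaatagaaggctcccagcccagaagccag
Unc45b: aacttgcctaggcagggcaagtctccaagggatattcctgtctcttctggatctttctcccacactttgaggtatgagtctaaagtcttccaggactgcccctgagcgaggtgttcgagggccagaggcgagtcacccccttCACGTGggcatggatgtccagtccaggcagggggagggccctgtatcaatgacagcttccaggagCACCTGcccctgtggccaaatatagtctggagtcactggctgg
Smyd1: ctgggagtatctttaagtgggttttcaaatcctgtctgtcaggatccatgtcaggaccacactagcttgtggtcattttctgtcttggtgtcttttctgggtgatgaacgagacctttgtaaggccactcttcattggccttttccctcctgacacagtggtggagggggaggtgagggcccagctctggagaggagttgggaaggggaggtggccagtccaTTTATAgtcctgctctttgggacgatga
Hspb1: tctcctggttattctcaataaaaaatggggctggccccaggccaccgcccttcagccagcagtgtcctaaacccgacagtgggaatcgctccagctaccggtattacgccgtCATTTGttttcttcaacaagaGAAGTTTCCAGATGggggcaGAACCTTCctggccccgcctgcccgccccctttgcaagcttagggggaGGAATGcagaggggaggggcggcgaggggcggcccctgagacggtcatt

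An E-box was present in 4 of these 5 members, against 66.2% of 32851 promoters of the same length, so its presence was common. Hspb3 held a pair of E-boxes at 76 to 71 and 54 to 49 bases before its start, a MEF2 match at 12 to 3 bases, which only 0.508% of promoters held, and a heat shock element at 224 to 217 bases. The MEF2 match of Hspb3 overlaps a TATA box, so that the same letters were counted under both names. Unc45b held E-boxes at 108 to 103 and 43 to 38 bases, Hspb8 held 1 at 132 to 127 and Hspb7 held 1 at 17 to 12. Smyd1 matched only the TATA box, read on the opposite strand at 28 to 23 bases. Hspb1 held heat shock elements at 117 to 110 and 97 to 90 bases, a motif present in 12.8% of promoters, beside E-boxes at 138 to 133 and 109 to 104 and an M-CAT element at 49 to 44. A match is a description of letters and not evidence of binding, and no match says only that these letters are not in this window.

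The 7 genes covered a wide range of levels that was the same in kind in every library. Cryab was the highest member, at percentiles 96.1 to 98.6 of the 10731 genes, and Hspb8 was next at percentiles 94.1 to 97.5. Hspb2 held percentiles 73.0 to 93.1, Unc45b 68.5 to 89.4 and Smyd1 60.2 to 85.7. Hspb7 was in the middle of the distribution (33.4 to 68.8) and Hspb3 near its floor (0.736 to 27.2). By FPKM the order Cryab, Hspb8, Hspb2, Unc45b, Smyd1, Hspb7, Hspb3 held in 5 of 6 libraries, and in replicate 1 of 0.2% FBS + exosome Unc45b stood above Hspb2. In the condition with 2 libraries, neighbours in that order were apart in both except Hspb2 (26.9 to 36.9 FPKM) and Unc45b (22.7 to 39.3 FPKM), whose ranges overlapped. Cryab alone made up 46.6% to 57.3% of the summed FPKM of the 7 members.

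**Figure D2:**
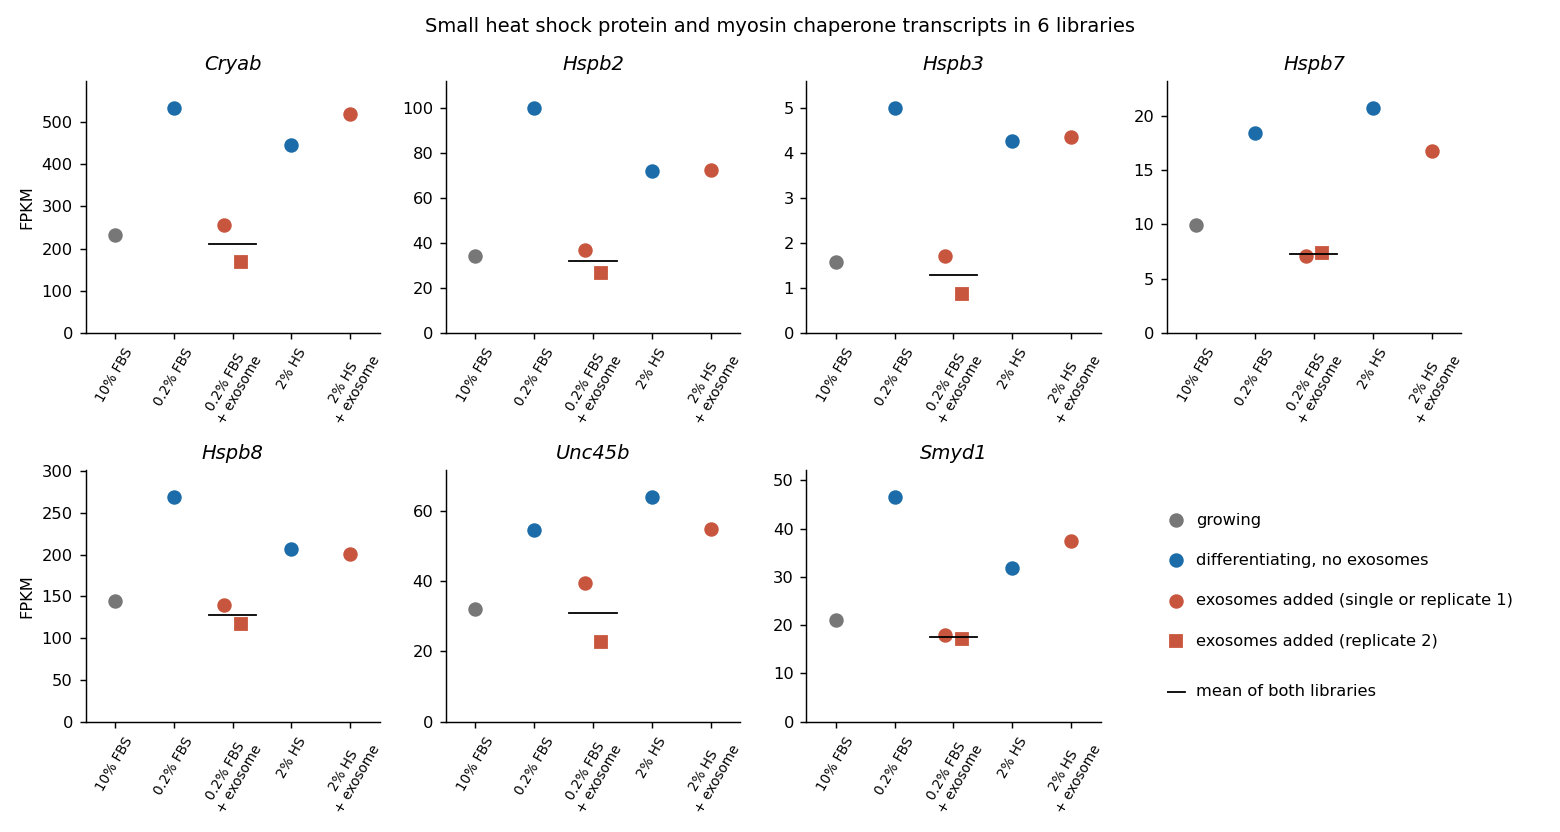
FPKM of each member (linear axes from 0, 1 panel per gene) in the 6 libraries, 1 point per library, coloured by growth, differentiation and added exosomes. In 0.2% FBS + exosome the circle is replicate 1, the square is replicate 2 and the line is their mean. In each panel the 2 libraries of 0.2% FBS + exosome lie below the 0.2% FBS library, and 2% HS and 2% HS + exosome both lie above them. Their level is 0.550 (Hspb3, replicate 2) to 1.22 (Unc45b, replicate 1) times that of the 10% FBS library.

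The small heat shock genes were higher in the media with less serum than in growing cells, and lower again in 0.2% FBS + exosome. Cryab, alpha-B crystallin, which protects desmin and titin filaments, was at 232 FPKM in 10% FBS, 533 in 0.2% FBS, 256 and 167 in the 2 libraries of 0.2% FBS + exosome, 445 in 2% HS and 519 in 2% HS + exosome. The 3 differentiating libraries outside 0.2% FBS + exosome were thus the high ones for Cryab, and the other 3 libraries did not reach them. Hspb2, which partners HSPB3 in a muscle-specific complex and binds the myotonic dystrophy kinase, had the same pattern at 34.0, 99.9, 36.9, 26.9, 72.1 and 72.3 FPKM in the same order of libraries. Hspb3 was the lowest gene, at 1.57 FPKM in 10% FBS, 4.99 in 0.2% FBS, 1.71 and 0.866 with exosomes, 4.26 in 2% HS and 4.35 in 2% HS + exosome. The high and low libraries of Hspb3 were those of its partner Hspb2.

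Hspb7, a small heat shock protein of heart and skeletal muscle that binds filamin C, was at 9.93 FPKM in 10% FBS, 18.4 in 0.2% FBS, 7.11 and 7.37 in 0.2% FBS + exosome, 20.7 in 2% HS and 16.7 in 2% HS + exosome. Its 2 exosome libraries in 0.2% FBS were close to each other and both were below growing cells. Hspb8, which with the co-chaperone BAG3 marks damaged filamin for autophagy, was at 145 FPKM in 10% FBS, 269 in 0.2% FBS, 139.6 and 117 in 0.2% FBS + exosome, 207 in 2% HS and 201 in 2% HS + exosome. For Hspb8 too, all 3 differentiating libraries outside 0.2% FBS + exosome were above the rest.

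The myosin chaperones had the same high libraries. Unc45b, the muscle UNC45 that guides HSP90 to the myosin head, was at 32.2 FPKM in 10% FBS, 54.6 in 0.2% FBS, 39.3 and 22.7 in 0.2% FBS + exosome, 64.0 in 2% HS and 54.8 in 2% HS + exosome. Its 2 exosome libraries in 0.2% FBS lay on either side of growing cells and were the farthest apart of the 7 genes on the log2(FPKM + 1) scale. That scale shrinks the gap of the low Hspb3, whose 2 libraries, at 1.71 and 0.866 FPKM, differed by a larger ratio. Smyd1, the muscle methyltransferase needed for thick filament assembly, was at 21.1 FPKM in 10% FBS, 46.6 in 0.2% FBS, 18.0 and 17.2 in 0.2% FBS + exosome, 31.9 in 2% HS and 37.4 in 2% HS + exosome. Its 2 exosome libraries in 0.2% FBS differed little and were both the lowest of the 6.

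The first comparison asked what exosomes do in 0.2% FBS. All 7 members were lower in each exosome library than in the 0.2% FBS library, as were 27.5% of the 10731 genes. Both exosome libraries of 0.2% FBS were below all 3 other differentiating libraries for 7 of 7 members, against 19.3% of all genes. The mean log2(FPKM + 1) change passed -1 for 6 of 7 members, against 2.25% of genes, and passed it in each library for 5 of 7 (Cryab, Hspb2, Hspb3, Hspb7 and Smyd1), against 1.61%. The median change was -1.36 over the members and 0.14 over all genes. Both changes of a gene share the 1 library of 0.2% FBS as control, so an error of that library moves them together.

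By limma with 1 mean per condition, 6 of 7 members passed an adjusted p of 0.05 downward, against 4.32% of genes called lower, and 7 of 7 passed at an unadjusted p under 0.05, against 31.5%. Hspb2 fell, with log2(FPKM + 1) changes of -1.41 and -1.86, a mean of -1.64 with a standard error of 0.22, and an adjusted p of 0.00764. In FPKM its 2 exosome libraries held 0.369 and 0.269 of the control. Hspb3 changed by -1.14 and -1.68 (SE 0.24, adjusted p 0.0140), and Cryab by -1.05 and -1.67 (SE 0.32, adjusted p 0.0328). The pseudocount of 1 shrinks the change of the low Hspb3 more than that of the others: in FPKM its exosome libraries held 0.343 and 0.173 of the control, and with a pseudocount of 0.1 its mean change was -1.95, against -1.66 for Hspb2 and -1.36 for Cryab. Hspb7 fell by 1.24 on the log2 scale (SE 0.16, adjusted p 0.00735) and Hspb8 by 1.07 (SE 0.23, adjusted p 0.0256). Smyd1 fell by 1.36 (SE 0.16, adjusted p 0.00701), to 0.386 and 0.368 of the control in FPKM. Unc45b did not pass: its changes were -0.46 and -1.23, with a mean of -0.85, a standard error of 0.28 and an adjusted p of 0.0839.

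The error in this test comes from 1 residual degree of freedom, the difference of the 2 exosome libraries, which also stands for the conditions with 1 library, and limma shares it across genes. The 6 calls fell to 0 with values under 1 FPKM raised to 1, with no filter on low values, and with 1 exosome effect fitted over both media (adjusted p of 0.707 for Cryab and 0.705 for the other members). With that common effect 3 of 7 members passed at an unadjusted p under 0.05, against 6.61% of genes. Its estimates were smaller, at -0.68 for Cryab, -0.93 for Hspb2, -0.80 for Hspb3, -0.83 for Hspb7, -0.63 for Hspb8, -0.58 for Unc45b and -0.68 for Smyd1. All 7 changes kept their direction in these settings. With values raised or with no filter they were also about as large, with a median of -1.36 in each. The members' median change was -1.14 in replicate 1 alone and -1.39 in replicate 2 alone.

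**Figure D3:**
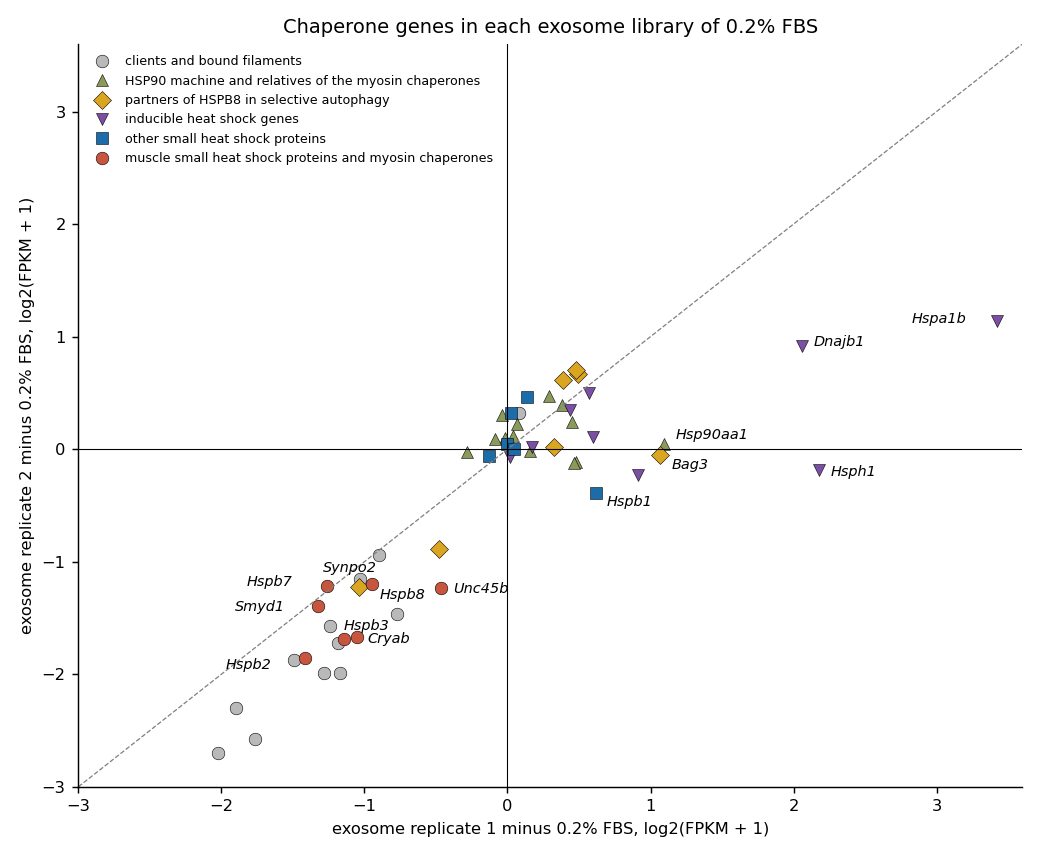
Log2(FPKM + 1) change with exosomes in 0.2% FBS in replicate 1 (x axis) and replicate 2 (y axis), each against the same 0.2% FBS library, for the 7 members (red) and the genes of 5 other chaperone and client lists (other colours and shapes), with the dashed line where both changes are equal. All 7 members are below 0 on both axes, with Unc45b nearest to 0 in replicate 1 at -0.46, and 5 lie past -1 on both axes.

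Exosomes in 2% HS were measured in 1 library against 1, with no test. No member passed a log2(FPKM + 1) change of 1 in either direction, as was so for all but 0.298% of genes downward and 0.354% upward. With exosomes 3 of 7 members were lower than in 2% HS alone, against 58.7% of genes. The changes were 0.22 for Cryab, 0.0048 for Hspb2, 0.02 for Hspb3, -0.29 for Hspb7, -0.04 for Hspb8, -0.22 for Unc45b and 0.23 for Smyd1. Their median was 0.0048, with -0.04 over all genes. Hspb7 and Unc45b were the lowest of the 7, at 0.807 and 0.858 of the 2% HS level in FPKM, and Cryab and Smyd1 were the highest, both at 1.17.

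The difference of the exosome effects between the media was tested as an interaction in the same limma fit. Lower in each exosome library of 0.2% FBS and higher in 2% HS + exosome than in the control of the same medium were 4 of 7 members (Cryab, Hspb2, Hspb3 and Smyd1), against 12% of genes. The difference passed only for Smyd1 (-1.58, SE 0.24, adjusted p 0.0293), 1 of 7 members against 0.867% of genes called lower. At an unadjusted p under 0.05, 6 of 7 members passed, against 19.5% of genes. Hspb2 had a difference of -1.64 (SE 0.33, adjusted p 0.0583), Cryab of -1.58 (SE 0.49, adjusted p 0.149), Hspb3 of -1.44 (SE 0.36, adjusted p 0.0936) and Hspb7 of -0.94 (SE 0.24, adjusted p 0.0933). Hspb8 and Unc45b were less clear, with -1.03 (SE 0.36, adjusted p 0.174) and -0.63 (SE 0.43, adjusted p 0.460). The difference of Unc45b was -1.01 without replicate 1 of 0.2% FBS + exosome and -0.25 without replicate 2. Over the settings tried, the adjusted p of Smyd1 ran from 0.0199 to 0.359 and that of Hspb2 from 0.0494 to 0.365.

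**Figure D4:**
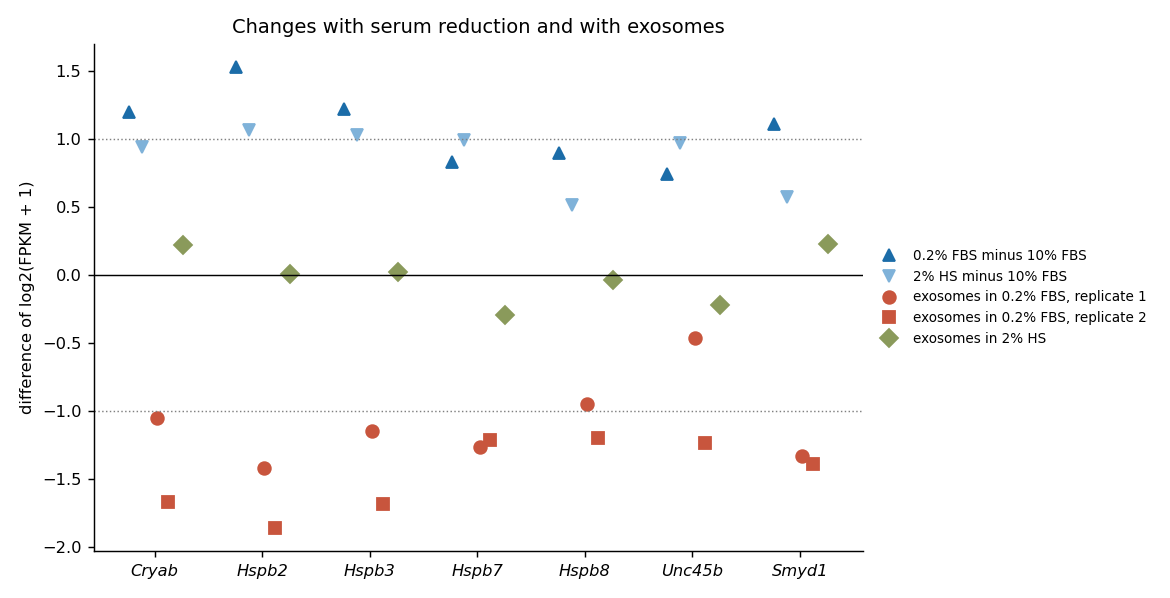
Log2(FPKM + 1) change of each member in 4 comparisons: 0.2% FBS and 2% HS against 10% FBS, and exosomes in 0.2% FBS and in 2% HS against the same medium without them. Each point is 1 library against 1, with circles and squares for the 2 exosome libraries of 0.2% FBS, and dotted lines mark changes of 1 and -1. The members lie between 0.51 and 1.53 in the serum comparisons, between -0.46 and -1.86 with exosomes in 0.2% FBS, and between -0.29 and 0.23 with exosomes in 2% HS.

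Serum reduction was measured in single libraries, and both differentiating libraries were compared with the same 10% FBS library. Every member was higher in both media than in growing cells, as were 31.4% of genes. In 0.2% FBS the log2(FPKM + 1) change passed 1 for 4 of 7 members (Cryab 1.20, Hspb2 1.53, Hspb3 1.22 and Smyd1 1.11), against 1.79% of genes. Hspb7 was at 0.83, Hspb8 at 0.89 and Unc45b at 0.74. In 2% HS it passed 1 for 2 of 7, Hspb2 at 1.06 and Hspb3 at 1.03, against 1.79% of genes, with Hspb7 at 0.99, Unc45b at 0.97, Cryab at 0.94, Smyd1 at 0.57 and Hspb8 at 0.51. Since 3 members lay just under 1 there, the count was 3 with a pseudocount of 0.1 or 0.5 or with values under 1 FPKM raised to 1, and 4 with libraries scaled to the same 75th percentile. In FPKM this put Hspb3 at 3.17 times and Hspb2 at 2.94 times the growing level in 0.2% FBS, and Unc45b at 1.70 times. The median change of the members was 1.11 in 0.2% FBS and 0.97 in 2% HS, and over all genes it was -0.09 and -0.08.

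The last comparison placed the cells in 0.2% FBS + exosome against growing cells. By limma 0 of 7 members passed in either direction, and of all genes 0.00932% passed downward and 0.0559% upward. At an unadjusted p under 0.05, 1 member (Hspb7) passed, against 11.5% of genes. No member passed a mean change of 1 in either direction, which 0.606% of genes did, and all 7 were within 0.5 on the log2(FPKM + 1) scale, as for 92.4% of genes. They were -0.16 for Cryab, -0.11 for Hspb2, -0.20 for Hspb3, -0.18 for Hspb8 and -0.10 for Unc45b, with -0.41 for Hspb7 (SE 0.16, adjusted p 0.376) and -0.25 for Smyd1 (SE 0.16, adjusted p 0.593). The growing level lay between the 2 exosome libraries for Cryab, Hspb2, Hspb3 and Unc45b, and above both for Hspb7, Hspb8 and Smyd1. For the first 4 of these the sign of the change rests on 1 library: without replicate 2 it was 0.15 for Cryab, 0.11 for Hspb2, 0.074 for Hspb3 and 0.28 for Unc45b. A p that misses the threshold does not show that these levels were equal.

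Small heat shock genes outside the 7 members were few at this filter. Of 6 others in the table, 3 passed the filter (Hspb1, Hspb6 and Hspb11), and 0 of 3 passed limma at an adjusted p of 0.05 (4.32% of all genes lower and 8.2% higher) or at an unadjusted p under 0.05 (31.5%), with a median change of 0.12 with exosomes in 0.2% FBS. Hspb1, HSP27, a ubiquitous actin-binding family member that heat shock factor induces, was at 187 FPKM in 10% FBS, 244 in 0.2% FBS, 375 and 186 in 0.2% FBS + exosome, 216 in 2% HS and 238 in 2% HS + exosome. It was highest in replicate 1 of 0.2% FBS + exosome and near growing cells in replicate 2, with a mean change of 0.12 and an adjusted p of 0.870 by limma. Hspb6, HSP20, was low and level at 4.49 to 5.10 FPKM in 5 libraries and at 2.79 in 2% HS + exosome.

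The make-up of the family shifted with these levels, in ratios picked once the values were known. The sum was taken over 9 small heat shock genes (Cryab, Hspb2, Hspb3, Hspb7, Hspb8, Hspb1, Hspb6, Hspb9 and Cryaa), without the distant relatives Hspb11 and Odf1, and its shares are shares of these 9. The summed FPKM was 614 in 10% FBS, 1175 in 0.2% FBS, 822 and 511 in 0.2% FBS + exosome, 970 in 2% HS and 1055 in 2% HS + exosome. Cryab made up 45.3% to 49.2% of it in the 3 differentiating libraries outside 0.2% FBS + exosome, 37.7% in growing cells, and 31.2% and 32.7% in the exosome libraries of 0.2% FBS. The ratio of Cryab to Hspb1 was 1.24 in 10% FBS, 2.19 in 0.2% FBS, 0.683 and 0.898 in 0.2% FBS + exosome, 2.06 in 2% HS and 2.18 in 2% HS + exosome. Hspb1 was thus the leading small heat shock transcript only in the 2 exosome libraries of 0.2% FBS, where it made up 45.6% and 36.4% of the sum.

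**Figure D5:**
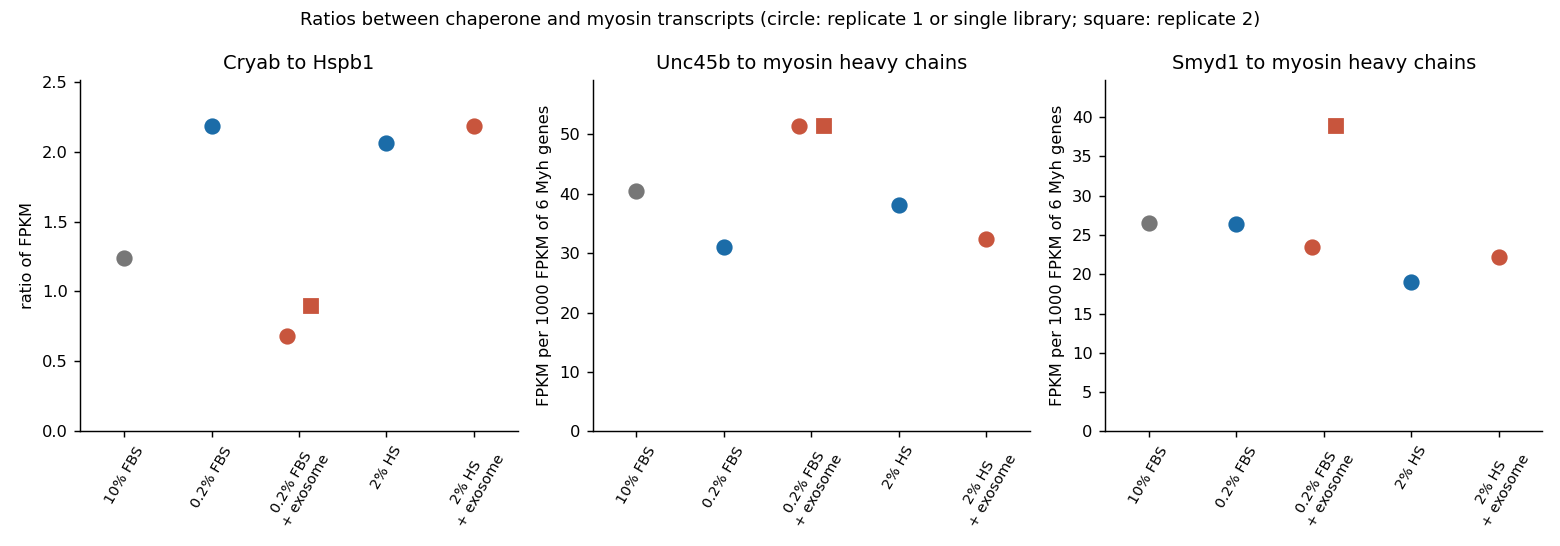
Ratios of FPKM in each of the 6 libraries, 1 point per library: Cryab to Hspb1, and Unc45b and Smyd1 per 1000 FPKM of 6 summed myosin heavy chains. The ratio of Cryab to Hspb1 is under 1 only in the libraries of 0.2% FBS + exosome, and the ratio of Unc45b to myosin is highest in the same 2 libraries, at 51.5 in both.

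The partners of HSPB8 in chaperone-assisted selective autophagy, the pathway that removes damaged filamin at the Z-disc, were measured beside it. Of 7 genes, 1 was called lower and 0 higher by limma, against 4.32% and 8.2% of all genes, and 4 passed at an unadjusted p under 0.05, against 31.5%, with a median change of 0.50 in 0.2% FBS. The 1 call was Synpo2, the Z-disc adaptor that links BAG3 to vesicle fusion, at 15.3 FPKM in 10% FBS, 30.8 in 0.2% FBS, 14.5 and 12.6 in 0.2% FBS + exosome, 27.9 in 2% HS and 29.1 in 2% HS + exosome (mean change -1.13, adjusted p 0.00882). Flnc, the gene for filamin C and also in this list, was lower in each exosome library of 0.2% FBS, by -0.48 and -0.88 (limma adjusted p 0.114). Synpo2 and Flnc thus had the high and low libraries of Hspb8, which were those of all 7 members. Bag3, the direct partner, did not: it was at 31.1, 36.9, 78.5, 35.5, 31.0 and 28.4 FPKM in that order of libraries, high only in replicate 1 of 0.2% FBS + exosome (mean change 0.51, adjusted p 0.400).

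Inducible heat shock genes were highest as a group in replicate 1 of 0.2% FBS + exosome. Of 9 listed, 8 passed the filter, and limma called 1 higher and 0 lower, against 8.2% and 4.32% of all genes, so the count of calls was near that of genes at large. At an unadjusted p under 0.05, 3 of 8 passed, against 31.5%, with median changes of 0.76 in replicate 1 and 0.23 in replicate 2. Hspa1b, the inducible HSP70, was at 1.90 FPKM in 0.2% FBS, 30.0 in replicate 1 and 5.39 in replicate 2 (mean change 2.28, adjusted p 0.0685), and its near-identical copy Hspa1a was listed at no more than 0.164 FPKM, so reads of the 2 may have been assigned to either. Dnajb1, the HSP40 that works with it and the 1 gene called, was at 12.5 FPKM in 0.2% FBS, 55.0 in replicate 1 and 24.4 in replicate 2 (adjusted p 0.0386). Hsph1, an HSP110 nucleotide exchange factor, was at 37.7, 174 and 33.0 FPKM in these libraries. Dnajb1 and Hsph1 were singled out after their values were seen. In replicate 2 Hspa1b and Dnajb1 were still above every library other than replicate 1. The part of the heat shock genes in the result was not tested.

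The HSP90 machine and the relatives of the 2 myosin chaperones held no called gene. Of 13 genes, limma called 0, against 4.32% of all genes lower and 8.2% higher, and 1 passed at an unadjusted p under 0.05, against 31.5%, with a median change of 0.15 in 0.2% FBS. Unc45a, the general UNC45 of non-muscle cells, was at 8.96 FPKM in 10% FBS, 7.60 in 0.2% FBS, 10.2 and 10.3 in 0.2% FBS + exosome, 7.25 in 2% HS and 6.71 in 2% HS + exosome (mean change 0.39, adjusted p 0.137). The ratio of Unc45b to Unc45a was 7.19 in 0.2% FBS, 3.86 and 2.21 with exosomes, 3.59 in growing cells, 8.82 in 2% HS and 8.18 in 2% HS + exosome. Hsp90aa1, the stress-inducible HSP90 that also serves UNC45B in muscle, was at 238 FPKM in 0.2% FBS, 510.2 in replicate 1 and 245 in replicate 2 (adjusted p 0.380). Naca, whose muscle splice form binds SMYD1, was at 505 to 678 FPKM in the 6 libraries (adjusted p 0.798). The table gives 1 value per gene and does not separate that form.

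Transcripts of most proteins that these chaperones serve were lower as well. Of 12 genes for myosin heavy chains, sarcomeric actins and the filaments that small heat shock proteins bind, 11 passed the filter. Of these 11, 10 were lower in each exosome library of 0.2% FBS, against 27.5% of all genes, and 1 was higher in each. The 1 higher was Vim, the intermediate filament of mesenchymal cells, with changes of 0.08 and 0.32, named here after its values were seen. By limma 6 were called lower (Myh1, Myh4, Myh7, Myh8, Actn2 and Ttn) and 0 higher, against 4.32% and 8.2% of all genes. In each exosome library of 0.2% FBS 8 passed -1, against 1.61% of all genes, with a median change of -1.58. Myh3, embryonic myosin, made up 91.0% to 94.1% of the summed myosin in each library and was at 738 FPKM in 10% FBS, 1604 in 0.2% FBS, 713 and 404 in 0.2% FBS + exosome, 1575 in 2% HS and 1566 in 2% HS + exosome (mean change -1.58, adjusted p 0.0586). The skeletal and cardiac actins Acta1 and Actc1 changed by -1.46 and -1.64 with adjusted p of 0.159 and 0.0790. The changes were -1.69 and -2.36 for the fast myosins Myh1 and Myh4, -2.17 for the developmental Myh8, -1.41 for the slow myosin Myh7 and -2.10 for Actn2, the Z-disc actinin. The gene for the fast myosin Myh2 was under the filter.

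The chaperones were set against their client as FPKM per 1000 FPKM of the 6 summed myosin heavy chains. The sum was 795 in 10% FBS, 1763 in 0.2% FBS, 764 and 441 in 0.2% FBS + exosome, 1675 in 2% HS and 1689 in 2% HS + exosome. Unc45b per 1000 was 40.5, 31.0, 51.5, 51.5, 38.2 and 32.5 in these libraries, highest in both exosome libraries of 0.2% FBS. On the log2 scale it was 0.73 higher than the 0.2% FBS library in each of them, so myosin transcript was lower by more than its chaperone. Smyd1 per 1000 was 26.5, 26.4, 23.5, 38.9, 19.0 and 22.2. The 2 exosome libraries of 0.2% FBS stood on opposite sides of their control for Smyd1, with log2 changes of -0.17 and 0.56.

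Genes that regulate muscle transcription gave a mixed picture. Of 9 reported here, 8 passed the filter, and limma called 1 lower and 2 higher, against 4.32% and 8.2% of all genes, with 7 of 8 at an unadjusted p under 0.05, against 31.5%. Mef2c, whose protein binds MEF2 sites, was at 6.24 FPKM in 10% FBS, 13.4 in 0.2% FBS, 4.39 and 3.48 in 0.2% FBS + exosome, 8.20 in 2% HS and 12.2 in 2% HS + exosome (mean change -1.56, adjusted p 0.00655). Its low libraries were those of all 7 members. Both exosome libraries of 0.2% FBS were below the other 3 differentiating libraries for 19.3% of all genes. In 2% HS Mef2c was higher with exosomes by 0.52, and 4 of 7 members were higher too (Cryab, Hspb2, Hspb3 and Smyd1), Smyd1 by 0.23. A link of Mef2c to any member was not tested. The 2 called higher were Myf5 and Six4, with changes of 0.96 and 0.86. Myod1, at 83.7 to 110 FPKM, had a change of -0.23 (adjusted p 0.472), and Myog, which acts after it in differentiation, had -0.82 (adjusted p 0.120). Of the 7 muscle cell markers, 1 was called lower, Tnnt1, the slow troponin T (mean change -1.31, adjusted p 0.0302), and 0 higher, against 4.32% and 8.2% of all genes. At an unadjusted p under 0.05 5 of 7 passed, against 31.5%, and 6 of 7 were lower in each exosome library of 0.2% FBS, against 27.5%, with a median change of -0.91.

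The genes most like each member were taken as the 3 with the smallest Euclidean distance between log2(FPKM + 1) profiles over the 6 libraries, each centred on its mean, among the 10730 other genes. Distances were taken with a pseudocount of 1 only, which shrinks the changes of the low Hspb3, so that its places below hold on this scale. For Cryab these were Hspb3 (distance 0.157), Klhl40 (0.169) and Pkhd1 (0.190), and for Hspb2 they were Pdlim3 (0.194), Acta1 (0.194) and Dhrs7c (0.239). Hspb3 was closest to Pkhd1 (0.0875), Scn4a (0.154) and Daam2 (0.157). Cryab was the 4th nearest to Hspb3, and was the only member to name another member in its 3. Hspb7 was closest to Hfe2 (0.165), Rassf7 (0.244) and Klhl41 (0.282), and Hspb8 to Ppapdc3 (0.174), Prkaa2 (0.175) and Agmat (0.177). Unc45b had Cdh2 (0.207), Pde4dip (0.265) and Stk17b (0.274), and Smyd1 had Mllt11 (0.163), Map3k7cl (0.199) and Gys1 (0.200). Klhl40 and Klhl41 are kelch adaptors of the muscle thin filament, Scn4a is the sodium channel of skeletal muscle and Pdlim3 a Z-disc protein. Other like genes are not described here, and whether muscle genes were more common among them was not tested. Pkhd1, the nearest to Hspb3, was as low as Hspb3, at 0.638 to 4.38 FPKM. The head-to-head pair was at a distance of 0.341, which placed Hspb2 20th from Cryab and Cryab 10th from Hspb2 among the 10730 genes.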

How the data were processed

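The authors sequenced TruSeq stranded mRNA libraries as 75-base single-end reads, trimmed them with cutadapt 1.9.1, aligned them to mm10 with TopHat2 2.1.0 (versions per the submitters' processing notes) and deposited FPKM from Cufflinks, 1 value per gene and library (annotation not given in the sources used here). Positions and transcript lengths are from GENCODE vM21 on mm10. FPKM hold no counts, so depth was estimated from the steps between low values of 2442 single-transcript genes with 200-base fragments assumed (75.3% to 77.9% of low values within 0.1 of a whole read), and no count test was run. Differences were taken on log2(FPKM + 1), which understates changes of low genes, over the 10731 entries with a mean of at least 1 FPKM. Conditions with 2 libraries were tested with limma 3.58.1 in R 4.3.3 (1 mean per condition, trend, Benjamini-Hochberg, adjusted p of 0.05). Contrasts of 1 library against 1 were described by a log2 change of 1, with no test. On simulated data with 200 changed genes the fit called 215 of 10731 and recovered 200, so 15 calls (6.98%) were unchanged genes. All simulated libraries carried noise of the size of the replicate spread, and the planted changes were larger than any mean change of a member. The simulation therefore checks that the fit runs and cannot show how errors of the single libraries affect the calls. Named by rule were the 7 members in full, partners that passed the fold in both exosome libraries of 0.2% FBS or that define a complex, and 3 like genes per member. Other genes were named outside this rule. Among them were Dnajb1, Myf5, Six4 and Ttn, which limma called, and Flnc, Hspb6, Hsph1 and Vim, which it did not. The members and the gene lists were chosen with earlier results of these data known, and 1 listed regulator is not reported here. Promoters are from RefSeq (GRCm38.p6) and matched 5 of 7 members. Alternatives were the pseudocount, the filter, scaling to the 75th percentile, values under 1 FPKM raised to 1, a common effect over both media and leaving out each replicate.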

Additional observations from a re-analysis of the deposited data

Results flagged for a closer look

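For 4 members (Cryab, Hspb2, Hspb3 and Smyd1) every exosome library moved down in 0.2% FBS while the 1 exosome library of 2% HS was higher than its control, which 12% of all genes did. Cryab changed by -1.05 and -1.67 in 0.2% FBS and by 0.22 in 2% HS on the log2(FPKM + 1) scale, a difference of -1.58 (limma adjusted p 0.149). Hspb2 changed by -1.41 and -1.86 against 0.0048, a difference of -1.64 (adjusted p 0.0583). Hspb3 changed by -1.14 and -1.68 against 0.02, a difference of -1.44 (adjusted p 0.0936). In 2% HS the FPKM of Hspb2 and Hspb3 were thus nearly level, at 1.00 and 1.02 times the control. Of the 4, Smyd1 was the only one for which the test of the difference passed in limma: it changed by -1.33 and -1.39 in 0.2% FBS and by 0.23 in 2% HS, a difference of -1.58 (adjusted p 0.0293). Each difference rests on the single 0.2% FBS control and the single libraries of 2% HS, and the medium and these libraries cannot be told apart.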

How the results depend on the processing

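The direction of the exosome change in 0.2% FBS was kept by all 7 members in every alternative run, and no called value turned. With values under 1 FPKM raised to 1 or with no filter, the median change of the members was still -1.36. The members called lower by limma, 6, went to 0 with values under 1 FPKM raised to 1, 0 with no filter and 0 with a common effect, where calls over all genes went from 1344 to 0 as well. Their adjusted p ran over the alternatives from 0.0288 to 0.707 for Cryab, 0.00630 to 0.705 for Hspb2, 0.0138 to 0.705 for Hspb3, 0.00589 to 0.705 for Hspb7, 0.0194 to 0.705 for Hspb8 and 0.00537 to 0.705 for Smyd1. The test of the difference between the media called 1 member (2 when scaled, with Hspb2 added at 0.0494, and 0 with values raised or with no filter), and over all genes 125 went to 0 in the last pair. The members higher by more than 1 in 2% HS than in growing cells went from 2 to 4 when scaled and to 3 with a pseudocount of 0.1 or 0.5 or with values raised. Leaving out either replicate gave a median change of the members of -1.39 to -1.14 with exosomes in 0.2% FBS, -0.38 to 0.074 against 10% FBS and -1.62 to -1.17 for the difference between the media. The cause of these shifts was not tested. Leaving out a replicate also left no residual degrees of freedom in the main fit, so these are values with no test. Scaling moved the median of all genes with exosomes in 0.2% FBS from 0.14 to -0.001 and that of the members from -1.36 to -1.51, and the split past a change of 1 from 241 lower and 193 higher to 316 and 106.

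Over all genes, the 193 higher were 353 with a pseudocount of 0.1, 350 with values raised and 312 without replicate 1. In 2% HS, 32 lower became 57 and 54, and 38 higher became 69 with either. Against 10% FBS, 74 lower in 0.2% FBS became 195 and 190 (115 with a pseudocount of 0.5), and 56 lower in 2% HS became 129 and 120. For 0.2% FBS + exosome against 10% FBS, 10 lower became 44 and 48 (20 with 0.5, 17 when scaled, 26 without replicate 2), 55 higher became 100 and 94 (100 without replicate 1), and the 7 limma calls became 2 when scaled and 0 with values raised or with no filter. Of 259 values of single members under alternatives, 20 lost the threshold, 12 moved and 1 gained it. The other 226 kept their side of it or moved by less than the replicate spread, and among these 4 uncalled changes of 0.2% FBS + exosome against 10% FBS (Cryab, Hspb2, Hspb3 and Unc45b) turned from negative to positive without replicate 2. No paired analysis was possible because the compared conditions share fewer than 2 replicate numbers. Limits are the single library of 4 conditions, the 1 control shared by both exosome libraries, the unknown strand setting at Cryab and Hspb2, and the low level of Hspb3.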

Other observations

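The cytosolic chaperonin, the ring that folds actin and tubulin, was measured through its 8 subunits (Tcp1 and Cct2 to Cct8). All 8 were lower in each exosome library of 0.2% FBS than in the control, as were 27.5% of all genes, by a median of -0.21 in replicate 1 and -0.11 in replicate 2 on the log2(FPKM + 1) scale. By limma 0 of 8 passed at an adjusted p of 0.05 (4.32% of all genes lower and 8.2% higher) or at an unadjusted p under 0.05 (31.5%). In 2% HS their median change was -0.05. These changes were small beside those of the members, and in every library each subunit was at 96.9 FPKM or above.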
